A study of Mus musculus with 8 samples.

Results

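The 41 autophagy genes described here are those whose symbols stand on a list of the core machinery of macroautophagy, from the kinase that starts an autophagosome to the receptors that load it. All 41 were found among the 24552 genes of the lacrimal gland (LG) count table, and the rule that picks them uses no measured value, although the list was drawn up with earlier results of these data known. Exorbital LGs came from female C57BL/6J mice, killed at 10 to 11 months of age. One group of 4 ate ad libitum (AL) and the other group of 4 was held on a 40% calorie restriction (CR) for the last 4 months, and the labels give no transgene or drug for either group. The study's methods describe 2 cohorts, in one of which the chow of the CR mice was enriched in vitamins and micronutrients, and CR mice got their food once a day before the dark phase. The labels do not say which cohort a library came from, so the calories, the chow and the feeding time cannot be told apart here. Whether CR altered LG transcripts is the question of the comparison, and the text asks it of the autophagy genes. Each library is named by its diet and replicate number. The labels do not say whether a library is 1 mouse or a pool, so p-values measure the spread between these samples.

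Macroautophagy wraps cytoplasm, protein aggregates or organelles in a double membrane, the autophagosome, which then fuses with the lysosome so that the contents are degraded. It is held back by the kinase mTORC1 when nutrients are plentiful and is released from that brake on fasting, largely by phosphorylation and lipidation of proteins that are already present. Transcription adds to this through factors such as TFEB and FOXO, and in secretory glands autophagy also removes damaged mitochondria, endoplasmic reticulum and secretory granules. RNA levels show the supply of transcripts and not the rate at which autophagosomes form.

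TFEB and its relatives bind sites with the core CACGTG, and FOXO factors bind sites with the core GTAAACA, so these letters were searched on both strands of RefSeq promoters, from 250 bases before to 50 bases after the start, on GRCm38.p6. Of the 41 members, 34 had an entry, and Map1lc3a, Becn1, Pik3c3, Atg16l1, Rb1cc1, Atg12 and Bnip3l had none. CACGTG, which reads the same on both strands, was present in 5 of the 34 (14.7%), namely Atg3, Atg5, Atg7, Atg14 and Bnip3, and in 8.09% of 27025 genes with a promoter. GTAAACA was in 0 of the 34 and in 4.05% of all genes. The members' promoters had a median GC content of 60.2%, against 52.7% over all promoters, and the shares were not adjusted for it. Upstream stretches of 3 members are shown because these members had an unadjusted p under 0.05 between the diets, one lower in CR with the motif, one higher in CR with it and one lower in CR without it. They lie at chr10:44268219-44268338 on the plus strand for Atg5, at chr7:138909520-138909626 on the minus strand for Bnip3 and at chr8:111940583-111940702 on the plus strand for Gabarapl2. They are written 5′ to 3′ with CACGTG in capitals. The stretches of Atg5 and Gabarapl2 end at the base before the RefSeq start, and that of Bnip3 ends 13 bases earlier, where the GENCODE gene begins.
Atg5: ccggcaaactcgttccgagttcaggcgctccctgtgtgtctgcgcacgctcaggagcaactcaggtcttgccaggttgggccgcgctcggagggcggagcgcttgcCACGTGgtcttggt
Bnip3: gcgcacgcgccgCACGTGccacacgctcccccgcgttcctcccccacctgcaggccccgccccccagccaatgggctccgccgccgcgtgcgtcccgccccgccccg
Gabarapl2: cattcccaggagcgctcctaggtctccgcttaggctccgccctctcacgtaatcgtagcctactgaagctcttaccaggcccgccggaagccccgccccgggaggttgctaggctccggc
The capitals begin 14 bases before the RefSeq start in Atg5 and 108 bases before it in Bnip3. A match describes the letters only, and the stretch from Gabarapl2 holds neither core.

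LG RNA was sequenced from the 3′ ends of transcripts, and between 12051918 and 22156545 reads were counted on genes in each library. Levels are given as CPM, the library's counts scaled to a common size with relative log expression (RLE) factors, and a floor of 3 counts is 0.152 to 0.231 CPM, which covers counting error only. A gene was called when it differed by at least 1.5-fold and edgeR's quasi-likelihood test, adjusted by Benjamini-Hochberg, gave a p under 0.05. By that rule 222 of the 11211 genes tested were called (1.98%), and 1874 (16.7%) had an unadjusted p under 0.05. CR 4 stood apart from the other libraries of its diet: the chi-square per degree of freedom between its counts and theirs was 624 to 759, against 52.1 to 86.4 among CR 1 to 3 and 42.7 to 172 among the AL libraries. This figure is taken on raw counts, so the most counted genes weigh most. Among them Bpifa2, on the parotid marker list below, was at 13700 CPM in CR 4 and 151207 to 167976 CPM in CR 1 to 3. Of the 8 LG secretory markers, Pip, Aqp5, Bhlha15, Ltf and Sval2 were present in every library. Scgb2b7 and Scgb1b7 were called lower in CR and were at 0 in some CR libraries, while Prol1, counted too rarely for edgeR, was at 0 to 0.491 CPM in AL and 0.666 to 5.68 CPM in CR. The list summed to 21362 to 37683 CPM in AL and 19640 to 44323 CPM in CR, most of it Pip, while its mean log2 CPM was 7.54 to 8.42 in AL and 5.25 to 6.81 in CR. Markers of the parotid gland, which lies next to the exorbital LG, summed to 13810 to 43414 CPM in AL and 56542 to 306215 CPM in CR, all 8 were higher in CR and 3 were called. For Prb1, which was called, the paper also reports a rise with CR by qRT-PCR in further LG samples. The tissue that these transcripts came from was not tested. Leukocyte markers summed to 119 to 370 CPM in AL and 61.0 to 86.4 CPM in CR, all 5 tested were lower in CR and 2 were called. Adipose markers reached 8.09 to 18.6 CPM in AL and 23.9 to 95.8 CPM in CR, and muscle markers 0.797 to 11.4 and 2.76 to 67.1 CPM, with all 5 tested of each list higher in CR and 1 adipose marker called. Fibroblast markers summed to 132 to 209 CPM in AL and 117 to 175 CPM in CR, most of it Dcn, but 4 of the 5 were lower in CR and 2 were called, Col1a1 (log2 fold change -2.50 ± 0.26) and Col3a1 (-2.79 ± 0.24). In bulk tissue, fewer cells of a type and less RNA per cell cannot be told apart.

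No member of the autophagy list was called. Of the 41 members, 40 could be tested and 0 passed (background 1.98%), and the smallest adjusted p by edgeR was 0.0581. At an unadjusted p under 0.05 there were 7 of 40 members (17.5%, against 16.7% of all genes tested), of which 5 were higher and 2 lower in CR (background 8.62% higher and 8.1% lower). The share of members at that threshold was close to the share of all genes. DESeq2 on the same counts had 7 of 40 members at an unadjusted p under 0.05 (17.7% of all genes). It called 2 of them, Map1lc3a and Atg5, with 704 genes called in the whole table (6.28%). A fit by edgeR with a block for replicate number called the same 2, where 6.24% of all genes were called. Without CR 4 edgeR called 3 of 39 members, Map1lc3a, Atg4d and Gabarapl1, all higher in CR, where 6.14% of all genes were called. CR 4 had the lowest sum of the parotid markers among the CR libraries.

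The 40 members split evenly, with 20 higher and 20 lower in CR, and their median log2 fold change was 0.00, against 0.01 for all genes tested. The interquartile range of the members was -0.11 to 0.25 and the extremes were -0.79 (Gabarapl2) and 0.93 (Atg9a). For 33 members the log2 fold change was under 0.5 in size, and 6 members (15%, against 24.5% of all genes) differed by at least 1.5-fold. The median size of the difference was 0.15 on the log2 scale in the members and 0.30 in all genes. The members also had narrow intervals: for 13 of the 40 (32.5%, against 13.0% of all genes) the whole 95% interval lay within a 1.5-fold change in either direction. These 13 were Ulk2, Becn1, Atg2a, Vmp1, Wipi1, Wipi2, Atg3, Atg12, Map1lc3b, Gabarap, Sqstm1, Tax1bp1 and Bnip3l. Replicates of the members differed by a median CV of 19.9% in AL and 21.3% in CR, against 26.4% in AL for all genes. The median standard error was 0.23 for the members and 0.31 for all genes. The lowest mean AL level was 0.558 CPM among the members and 0.0782 CPM among all genes. Sizes and intervals were not compared with those of genes of similar level. Every CR library lay above or below every AL library for 5 members (12.5%, against 9.79% of all genes), Map1lc3a and Atg9a being above (background 4.58%) and Atg5, Gabarapl2 and Uvrag below (background 5.2%).

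**Figure D1:**
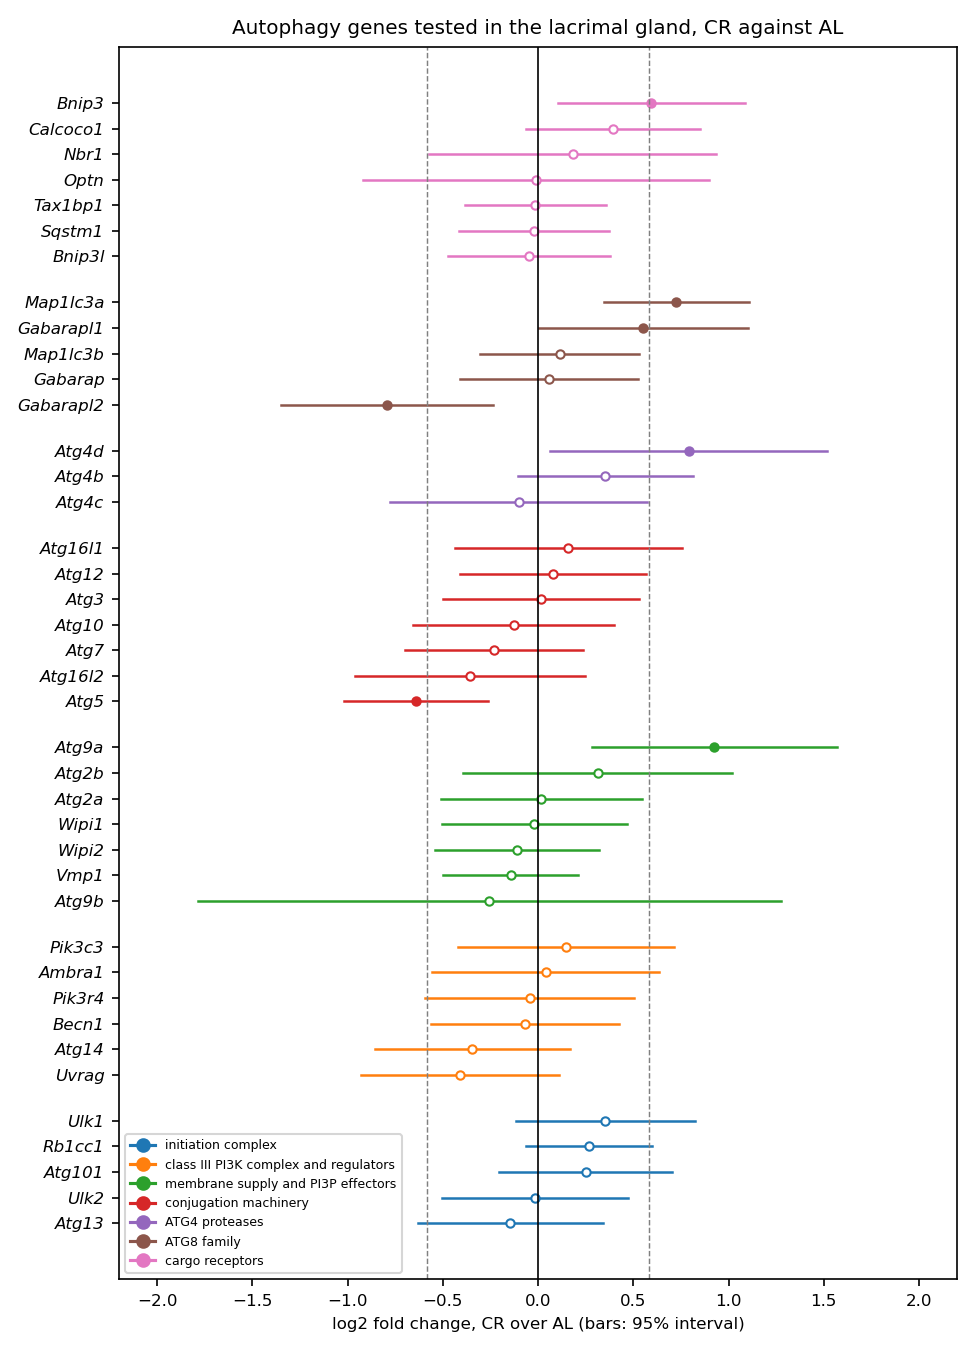
Log2 fold change (CR over AL, x axis) of the 40 autophagy genes tested, grouped by role; bars are 95% intervals from edgeR, filled points have an unadjusted p under 0.05 and dashed lines mark a 1.5-fold change. The points lie on both sides of 0 within most roles, from -0.79 for Gabarapl2 to 0.93 for Atg9a.

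The initiation complex, in which the kinases ULK1 and ULK2 work with ATG13, RB1CC1 and ATG101, showed no member past either threshold. Of its 5 members 3 were higher and 2 lower in CR and the median log2 fold change was 0.25, over a range from -0.15 (Atg13) to 0.35 (Ulk1). Rb1cc1, also known as FIP200 and the scaffold of the complex, was at 62.2 ± 2.59 CPM in AL and 74.9 ± 8.29 CPM in CR (SD, n = 4), with a log2 fold change of 0.27 ± 0.15 (SE). Its lowest CR library, at 63.1 CPM, lay within the AL range of 58.5 to 64.3 CPM. Ulk1 was at 25.2 ± 3.98 CPM in AL and 32.2 ± 9.59 CPM in CR, and only CR 2, at 46.5 CPM, stood far from the other libraries. Ulk2 was nearly equal, at 7.24 ± 1.62 and 7.18 ± 0.308 CPM.

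The class III PI3K complex makes the lipid PI3P on the growing membrane. Of its 6 members and regulators 2 were higher and 4 lower in CR around a median of -0.06 on the log2 scale, and 0 had an unadjusted p under 0.05. Becn1, the Beclin 1 subunit that links the lipid kinase to its regulators, was at 21.4 ± 3.23 CPM in AL and 20.4 ± 6.07 CPM in CR (log2 fold change -0.07, 95% interval -0.56 to 0.42). The lipid kinase gene Pik3c3 and its regulatory subunit gene Pik3r4 differed by 0.15 and -0.04 on the log2 scale. Uvrag encodes the subunit found in the Beclin 1 complex of endosomes and late autophagosomes. It was at 7.01, 7.73, 7.00 and 6.80 CPM in AL 1 to 4 and at 3.75, 6.57, 4.95 and 6.16 CPM in CR 1 to 4. The groups did not overlap, but CR 2 at 6.57 CPM and AL 4 at 6.80 CPM were nearly equal. Its log2 fold change was -0.41 ± 0.24 (edgeR adjusted p = 0.438), and exons of Gm45187 lie opposite the gene. Atg14, the subunit that directs the complex to autophagosome formation, was at 8.37 ± 1.39 CPM in AL and 6.58 ± 1.45 CPM in CR with overlapping groups.

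Among the 7 genes for membrane supply and PI3P binding, 3 were higher and 4 lower in CR around a median of -0.02 on the log2 scale. For 6 of them the value was within 0.5 of no change on the log2 scale. The exception was Atg9a, which encodes the lipid scramblase whose vesicles seed the autophagosome membrane. Its levels were 2.70, 2.70, 1.60 and 2.54 CPM in AL 1 to 4 and 5.09, 4.86, 4.52 and 3.72 CPM in CR 1 to 4. All CR libraries were above all AL libraries. The log2 fold change was 0.93 ± 0.29 (95% interval 0.29 to 1.57), with an unadjusted p under 0.05 and an adjusted p of 0.128 by edgeR, on 22 to 82 counts per library. Atg9a (GRCm38, chr1:75180860-75192196, minus strand) shares 54.5% of the 75-base windows in its last 600 transcribed bases per transcript with the same-strand gene model Gm29253 and overlaps exons of Ankzf1 on the other strand, so its counts are uncertain. Atg9b, its paralog, was counted only 1 to 14 times per library. The PI3P-binding genes Wipi1 and Wipi2 differed by -0.02 and -0.11, and the lipid transfer genes Atg2a and Atg2b by 0.02 and 0.31, on the log2 scale.

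The conjugation machinery attaches ATG8 proteins to lipid and ATG12 to ATG5. Of its 7 members 3 were higher and 4 lower in CR around a median of -0.13 on the log2 scale. Atg5 had the second smallest p of all members tested. It was at 25.8, 21.2, 26.6 and 22.5 CPM in AL 1 to 4 and at 16.4, 16.3, 12.2 and 16.7 CPM in CR 1 to 4. Every CR library was below every AL library, and CR 3 was the lowest. The log2 fold change was -0.64 ± 0.17 (95% interval -1.02 to -0.26; edgeR adjusted p = 0.0829). DESeq2 called it, at an adjusted p of 0.0300, as did edgeR with a block for replicate number, at 0.0472. Over the alternatives tried the adjusted p ran from 0.0300 to 0.486. The gene (GRCm38, chr10:44268358-44364291, plus strand) shares no 75-base window near its 3′ ends with another gene and overlaps no other exon, and its promoter is one of those with CACGTG above. Atg16l1, whose protein joins ATG12 and ATG5 in the complex that places ATG8 on the membrane, was at 6.23 ± 0.449 CPM in AL and 6.96 ± 2.49 CPM in CR, and Atg12 was at 11.4 ± 2.42 and 12.0 ± 2.58 CPM. Atg7, the E1-like enzyme shared by both conjugation reactions, was at 8.10 ± 1.46 CPM in AL and 6.89 ± 0.413 CPM in CR (log2 fold change -0.23 ± 0.22). Atg3, which passes ATG8 to lipid, differed by 0.02, and Atg10, which passes ATG12 to ATG5, by -0.13.

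ATG4 proteases trim new ATG8 proteins and release them from membranes. Atg4d was at 5.09, 5.15, 4.96 and 4.67 CPM in AL 1 to 4 and at 11.6, 12.5, 6.38 and 3.94 CPM in CR 1 to 4. CR 1 and CR 2 were far above every AL library, whereas CR 4 was below all of them. Its log2 fold change was 0.79 ± 0.33 (edgeR adjusted p = 0.252). Without CR 4 the log2 fold change was 1.03 and the adjusted p 0.0413, the lowest of a range up to 0.885 over the alternatives tried. Exons of Kri1 lie opposite Atg4d. Atg4b and Atg4c differed by 0.35 and -0.10, with overlapping groups. Atg4a, the only member counted too rarely for edgeR, had 0, 8, 7 and 16 counts in AL 1 to 4 and 10, 8, 2 and 7 in CR 1 to 4. These are 0.453 ± 0.336 and 0.423 ± 0.241 CPM, close to the floor, and a two-sided exact permutation test of 4 against 4 gave p = 0.886, where the smallest p possible is 0.0286. It shares 39.2% of its 3′ windows with the pseudogene Atg4a-ps.

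**Figure D2:**
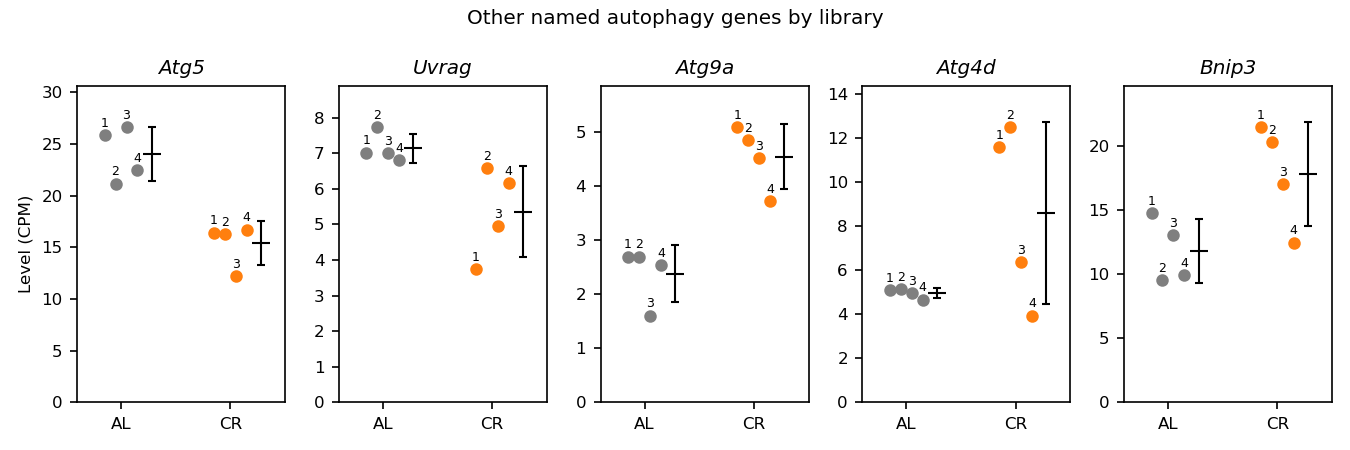
Level in CPM (y axis, from 0) of Atg5, Uvrag, Atg9a, Atg4d and Bnip3 in each library, numbered by replicate, with the mean and SD of the 4 libraries of each diet. The diets do not overlap for Atg5, Uvrag and Atg9a, while CR 4 lies below every AL library for Atg4d and among the AL libraries for Bnip3.

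Of the 5 ATG8 family members 3 had an unadjusted p under 0.05 (16.7% of all genes tested), 2 of them higher and 1 lower in CR, a count given for 1 of 7 roles with no test of the family. Its proteins are attached to the autophagosome membrane, where they bind cargo receptors, and fall into the LC3 subfamily (Map1lc3a, Map1lc3b) and the GABARAP subfamily (Gabarap, Gabarapl1, Gabarapl2). Map1lc3a, the gene of LC3A, was at 35.1, 31.6, 27.1 and 36.3 CPM in AL 1 to 4 and at 65.7, 45.1, 55.4 and 49.1 CPM in CR 1 to 4. The lowest CR library was above the highest AL library. Its log2 fold change of 0.72 ± 0.18 (95% interval 0.34 to 1.11) had the smallest adjusted p of all members, 0.0581 by edgeR. DESeq2 called it, at an adjusted p of 0.00861, as did limma voom with quality weights, at 0.0278, and edgeR with a block for replicate number, at 0.0178. The range was 0.00861 to 0.489 over the alternatives tried. Map1lc3a (GRCm38, chr2:155276297-155278073, plus strand) shares no 3′ window with another gene and overlaps no other exon.

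Map1lc3b, the gene of the commonly measured autophagosome marker LC3B, was at 128, 130, 153 and 115 CPM in AL 1 to 4 and at 152, 168, 147 and 103 CPM in CR 1 to 4. The groups overlapped on both sides, with CR 2 the highest and CR 4 the lowest library. The log2 fold change was 0.11 ± 0.19 (95% interval -0.30 to 0.53; edgeR adjusted p = 0.840), so a difference of more than 1.5-fold lay outside the interval. Pseudogenes share 13.6% of its 3′ windows and exons of Zcchc14 lie opposite it. Gabarap was likewise unseparated, at 63.2, 81.5, 52.5 and 103 CPM in AL 1 to 4 and 69.7, 84.1, 69.8 and 88.5 CPM in CR 1 to 4 (log2 fold change 0.06 ± 0.21; edgeR adjusted p = 0.940).

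Gabarapl1 was at 38.9, 45.2, 48.8 and 48.1 CPM in AL 1 to 4 and at 70.2, 96.9, 62.8 and 35.8 CPM in CR 1 to 4. CR 1 to 3 were above all AL libraries and CR 4 was below them, as in Atg4d. Its log2 fold change was 0.55 ± 0.25 (edgeR adjusted p = 0.295), with 0.76 and an adjusted p of 0.0331 without CR 4 and 0.32 and an adjusted p of 0.629 without CR 2, in a range from 0.0331 to 0.983 over the alternatives tried. Exons of 1700101I11Rik lie opposite the gene. Gabarapl2 showed the reverse direction, at 9.09, 6.44, 12.5 and 8.22 CPM in AL 1 to 4 and 6.22, 5.74, 4.64 and 4.28 CPM in CR 1 to 4. All CR libraries were below all AL libraries, though AL 2 and CR 1 were close. Its log2 fold change was -0.79 ± 0.26 (95% interval -1.35 to -0.24; edgeR adjusted p = 0.134), on 75 to 171 counts per library. Gabarapl2 (GRCm38, chr8:111940703-111953612, plus strand) shares no 3′ window with another gene and overlaps no other exon. A ratio within a library needs no scaling between libraries, and was formed after these values were seen, so it is given with no test. The count of Gabarapl1 per count of Gabarapl2 was 4.28, 7.02, 3.92 and 5.86 in AL 1 to 4 and 11.3, 16.9, 13.5 and 8.38 in CR 1 to 4, without overlap. The count of Map1lc3a per count of Map1lc3b was 0.274, 0.242, 0.177 and 0.316 in AL and 0.432, 0.269, 0.376 and 0.478 in CR, where CR 2 fell among the AL libraries.

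**Figure D3:**
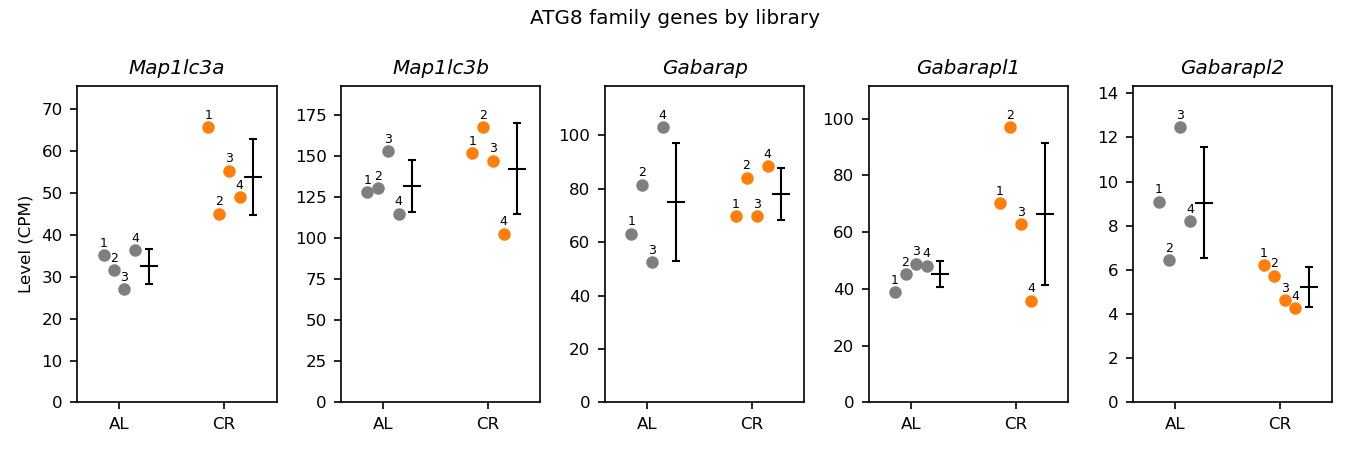
Level in CPM (y axis, from 0, a scale for each gene) of the 5 ATG8 family genes in each library, numbered by replicate, with the mean and SD of the 4 libraries of each diet. CR libraries lie above AL for Map1lc3a and below AL for Gabarapl2, while Map1lc3b and Gabarap overlap and Gabarapl1 overlaps through CR 4 alone.

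The cargo receptors tie ubiquitinated proteins or organelles to ATG8 proteins. Of the 7 members 3 were higher and 4 lower in CR around a median of -0.01 on the log2 scale. Sqstm1, the gene of the receptor p62, was at 86.7 ± 10.5 CPM in AL and 85.3 ± 16.2 CPM in CR (log2 fold change -0.02, 95% interval -0.42 to 0.37). Tax1bp1 was at 192 ± 17.9 and 190 ± 19.4 CPM (log2 fold change -0.01, 95% interval -0.39 to 0.36). Nbr1 and Optn, the optineurin gene, differed by 0.18 ± 0.35 and -0.01 ± 0.42, with wider errors, and Nbr1 was highest in AL 4 (38.4 CPM) and CR 4 (50.8 CPM). Calcoco1, a receptor for the endoplasmic reticulum and Golgi, was at 31.2 ± 6.93 CPM in AL and 40.9 ± 9.34 CPM in CR (log2 fold change 0.39 ± 0.21; edgeR adjusted p = 0.387).

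The mitochondrial receptor genes Bnip3 and Bnip3l are paralogs that respond to hypoxia, and their values differed from each other here. Bnip3 was at 14.7, 9.51, 13.0 and 9.89 CPM in AL 1 to 4 and at 21.4, 20.3, 17.0 and 12.4 CPM in CR 1 to 4. CR 1 to 3 were above the AL range and CR 4 was within it. The log2 fold change was 0.59 ± 0.23 (edgeR adjusted p = 0.197), pseudogenes share 19.5% of its 3′ windows and exons of Gm45507 lie opposite it. Bnip3l, also called Nix, was at 16.8 ± 3.89 CPM in AL and 16.3 ± 1.21 CPM in CR (log2 fold change -0.05 ± 0.20). Whether the response of the paralogs differs was not tested.

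The mean log2 CPM of the 8 parotid markers, taken as a parotid score, was 8.60, 6.89, 7.24 and 4.18 in AL 1 to 4 and 12.4, 13.5, 11.2 and 10.2 in CR 1 to 4. It was higher in every CR library, lowest among the CR libraries in CR 4, and cannot be told apart from diet. With the score as a covariate, 3 of 40 members had an unadjusted p under 0.05 (against 9.87% of all genes in that fit), namely Gabarapl2 (log2 fold change -1.27 ± 0.53), Atg5 (-0.85 ± 0.36) and Map1lc3a (0.84 ± 0.37). Adjusted p-values by edgeR in that fit were 0.486, 0.486 and 0.489. The fitted difference changed sign for Atg4d (-0.36 ± 0.66), Gabarapl1 (-0.04 ± 0.53), Bnip3 (-0.21 ± 0.395) and Map1lc3b (-0.43 ± 0.37). None of these had an unadjusted p under 0.05 in that fit, so their direction there is not resolved. The part of the score in these results was not tested further. In each of the 8 fits that left out 1 library, Map1lc3a, Atg5, Atg9a and Gabarapl2 kept their direction and an unadjusted p under 0.05. Leukocyte markers and the collagens of the fibroblast list, lower in CR, and adipose markers, higher in CR, moved with diet as well, and their part was not tested.

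**Figure D4:**
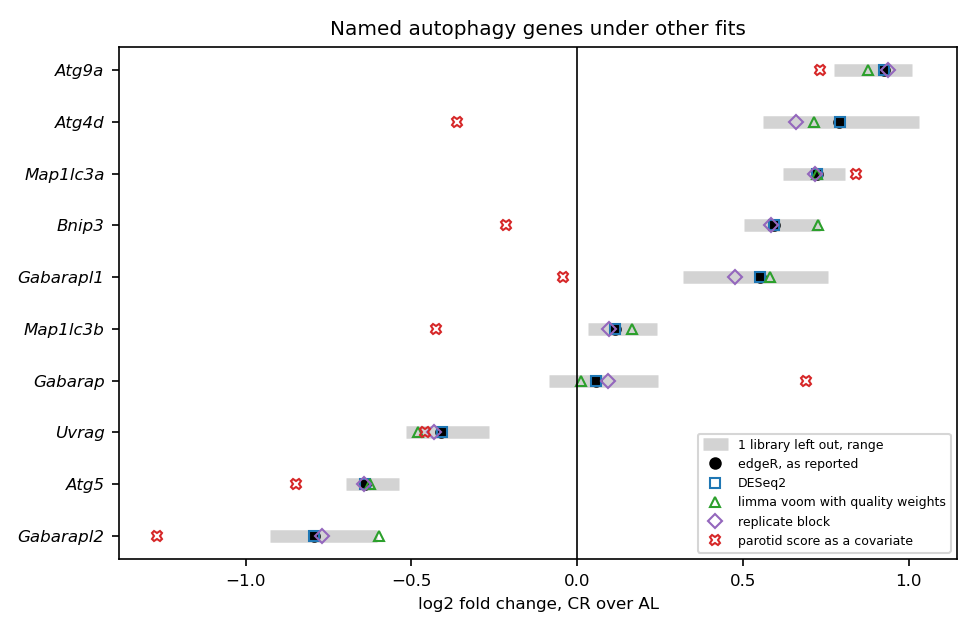
Log2 fold change (CR over AL, x axis) of the 10 autophagy genes given by library, from edgeR as reported, from DESeq2, from limma voom with quality weights, with a block for replicate number and with a parotid score covariate; grey bars span the 8 fits that leave out 1 library. Map1lc3a, Atg9a, Atg5, Uvrag and Gabarapl2 stay on their side of 0 in all of these fits, and Atg4d, Bnip3, Gabarapl1 and Map1lc3b cross it with the parotid score.

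A further 62 genes of the pathway were listed, all were in the table and 58 could be tested, leaving out Zfyve1, Stbd1, Sesn2 and Foxo3. Of the 58, 34 were higher and 24 lower in CR around a median of 0.08 on the log2 scale. Of these, 2 were called (background 1.98%), Pink1 higher (background 1.2%) and Ddit4 lower (background 0.785%), and 10 had an unadjusted p under 0.05 (17.2%, against 16.7% of all genes), 7 of them higher and 3 lower. Groups did not overlap for 6 genes (10.3%, against 9.79% of all genes).

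Pink1 encodes the mitochondrial kinase that marks damaged mitochondria for mitophagy. It was at 18.3, 22.4, 24.0 and 24.5 CPM in AL 1 to 4 and at 49.8, 60.4, 62.0 and 37.7 CPM in CR 1 to 4. The lowest CR library, CR 4, was well above the highest AL library. Pink1 was higher in CR with a log2 fold change of 1.23 ± 0.19 (95% interval 0.81 to 1.66; edgeR adjusted p = 0.00931). It was called without each library in turn, and a fit with the parotid score gave 1.23 with an adjusted p of 0.428, the highest over the alternatives tried, where DESeq2's was the lowest at 3.97e-06. The gene (GRCm38, chr4:138313409-138326307, minus strand) holds the annotated small RNA genes Gm27646 and Mir7019 on its own strand. In its list of 15 further cargo receptors and mitophagy genes, 14 were tested, 10 were higher and 4 lower, and Pink1 was the 1 called. Retreg1, also called FAM134B and a receptor for the endoplasmic reticulum, had the highest log2 fold change of that list, 1.504 ± 0.38 (edgeR adjusted p = 0.0635). DESeq2, limma voom and edgeR with no filter on low counts called Retreg1, at adjusted p-values of 0.00398, 0.0313 and 0.0182. So did edgeR with a block for replicate number, at 0.00956, and without CR 4, at 0.00217. Beside the parotid score its log2 fold change was -0.17 ± 0.60 with an adjusted p of 0.952. Its levels were 11.2, 6.32, 6.41 and 5.89 CPM in AL 1 to 4 and 27.4, 30.7, 18.8 and 7.55 CPM in CR 1 to 4, so that CR 4 lay below AL 1. The lowest value was that of Ncoa4, the ferritin receptor, at -0.54 ± 0.51 on 8 to 23 counts per library, and it shares 39.4% of its 3′ windows with Gm6768.

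Ddit4 encodes REDD1, a stress-induced inhibitor of mTORC1. It was at 37.4, 40.5, 32.7 and 33.8 CPM in AL 1 to 4 and at 9.83, 11.3, 14.2 and 18.4 CPM in CR 1 to 4. Every CR library was far below every AL library. Ddit4 was lower in CR with a log2 fold change of -1.43 ± 0.21 (95% interval -1.88 to -0.97; edgeR adjusted p = 0.00697), was called without each library in turn, and had a log2 fold change of -1.08 with an adjusted p of 0.449 beside the parotid score, the highest over the alternatives tried, where DESeq2's was the lowest at 4.01e-07. The gene (GRCm38, chr10:59949669-59951834, minus strand) shares no 3′ window with another gene. Of the 20 nutrient-sensing regulators 18 were tested, 12 were higher and 6 lower, and Ddit4 was the 1 called. At the other end of that list stood Sesn1, a sestrin that restrains mTORC1, at 1.31, 1.23, 1.46 and 2.44 CPM in AL 1 to 4 and 3.68, 6.81, 3.41 and 2.94 CPM in CR 1 to 4. The groups did not overlap, and the log2 fold change was 1.37 ± 0.39 (edgeR adjusted p = 0.0917). DESeq2 called Sesn1, at an adjusted p of 0.0199, as did edgeR without CR 4 at 0.046, in a range up to 0.610 over the alternatives tried.

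Of the 15 genes for fusion with the lysosome all were tested, 8 were higher and 7 lower in CR, and 0 were called. Stx17, the syntaxin that brings the finished autophagosome to the lysosome, was at 19.5, 17.7, 24.2 and 14.5 CPM in AL 1 to 4 and at 62.0, 40.1, 45.8 and 21.7 CPM in CR 1 to 4. CR 1 to 3 were above all AL libraries and CR 4 lay among them. The log2 fold change was 1.16 ± 0.28 (edgeR adjusted p = 0.0584). DESeq2, limma voom and edgeR with no filter on low counts called Stx17, at adjusted p-values of 0.00478, 0.0193 and 0.0192. So did edgeR with a block for replicate number, at 0.00486, and without CR 4, at 0.00281. Beside the parotid score its log2 fold change was 0.27 ± 0.55 with an adjusted p of 0.900. Plekhm1, an adaptor for lysosome fusion with exons of Arhgap27os1 opposite it, had the lowest value of the list, -0.58 ± 0.32 (adjusted p = 0.399). Among the 12 further initiation, nucleation and scaffold genes 11 were tested, 4 were higher and 7 lower, and 0 were called. Their extremes were Wdr45, a PI3P-binding protein gene, at 0.20 ± 0.41 with 25.5% of its 3′ windows shared with Gm45208, and Trp53inp2, whose protein binds ATG8 proteins, at -0.75 ± 0.48 on the log2 scale. Trp53inp2 was at 8.84, 13.5 and 6.93 CPM in CR 1 to 3 and 37.9 CPM in CR 4, against 13.3 to 35.5 CPM in AL. Its log2 fold change ran from -0.49 without CR 3 to -1.54 without CR 4, where it was called (edgeR adjusted p = 0.0184), and was 0.06 ± 0.81 beside the parotid score.

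**Figure D5:**
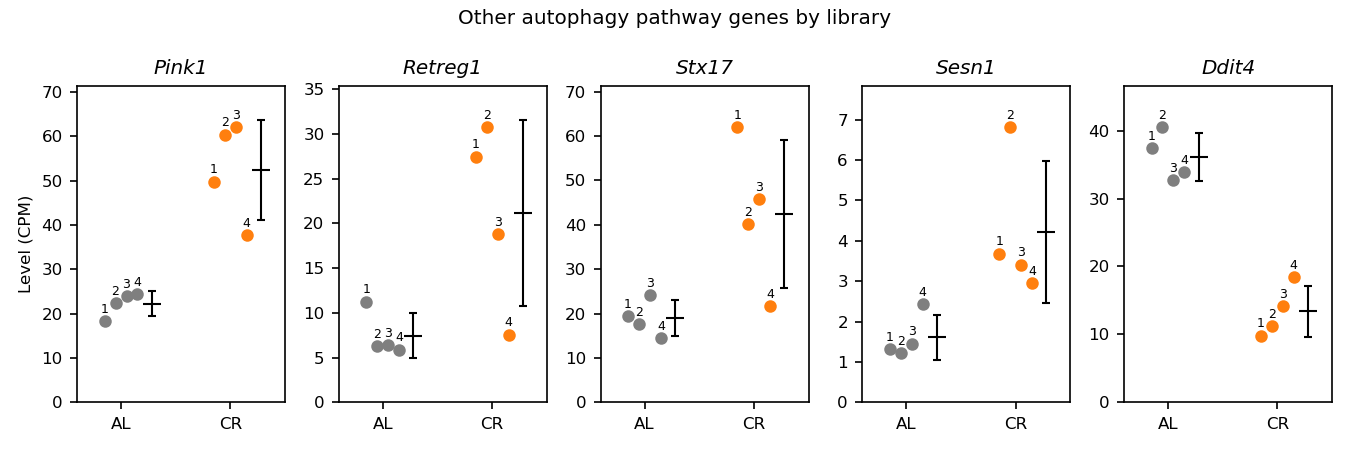
Level in CPM (y axis, from 0, a scale for each gene) of Pink1, Retreg1, Stx17, Sesn1 and Ddit4 in each library, numbered by replicate, with the mean and SD of the 4 libraries of each diet. CR libraries lie above AL for Pink1 and Sesn1 and below AL for Ddit4, while CR 4 overlaps AL for Retreg1 and Stx17.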

How the data were processed

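Libraries of LG RNA, 4 AL and 4 CR, were sequenced with a 3′ kit (oligo(dT) priming, single reads of 75 bases). The authors deposited raw counts, made on the ROSALIND platform with cutadapt for trimming, STAR for alignment to mm10 and HTSeq for counting per gene. The strand setting of the counting is not given in the sources used here. The log2 values deposited by the authors are counts divided by DESeq2's RLE factors, plus 1, in log2. They were recomputed here to within 0.000124 and served only for that check.

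After 5 repeated symbols were dropped from 24557 rows, 24552 genes remained, 16735 had a count and 11211 passed filterByExpr. Totals were 12051918 to 22156545 counts per library. The comparison of CR with AL used quasi-likelihood F tests over all genes tested (edgeR 4.0.16, RLE factors, R 4.3.3). Dividing the log2 fold change by the root of F gave its standard error, and the 95% interval uses the total degrees of freedom of the fit. The biological coefficient of variation was 34.7%. Atg4a was tested by an exact permutation test. Groups follow the diet that the labels give, and no pair of replicates agreed within sampling noise, CR 4 being the farthest from the others of its diet.

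The 41 members, the pathway lists and the marker lists were chosen with earlier results of these data known. Members given by library are those called, those at an unadjusted p under 0.05, the 3 highest and 3 lowest log2 fold changes, the ATG8 family and those whose groups do not overlap. Of the pathway lists, the genes called and the highest and lowest of each list are given, and other members are given by role. Positions and shared 75-base windows, searched in the last 600 bases of transcripts, come from GENCODE vM21 on GRCm38, and promoters from RefSeq on GRCm38.p6.

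Alternatives tried were upper-quartile and TMM factors, DESeq2 1.42.0, limma 3.58.1 voom with quality weights, robust dispersion, no filter, a minimum of 10 counts in each library, no fold threshold, a replicate block, the parotid score as a covariate, leaving out the 50 most counted genes and leaving out each library. The fits by edgeR, DESeq2 and limma voom were also run on simulated counts with planted fold changes. The simulation held no difference in parotid markers between the diets and no outlying library, so it cannot speak to those features.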

Additional observations from a re-analysis of the deposited data

Results flagged for a closer look

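In 4 of 38 groups of 4 libraries, taken over the genes given by library, the highest or lowest library lay far from the rest by Dixon's ratio of its gap to the whole range (past the 95% critical value, which chance passes in about 1 of 20 groups). For Atg5 it was CR 3, at 12.2 CPM against 16.3 to 16.7 CPM in the other CR libraries (ratio 0.904), and without CR 3 the log2 fold change of Atg5 kept its direction and an unadjusted p under 0.05. For Atg9a it was AL 3, at 1.60 CPM against 2.54 to 2.70 CPM (ratio 0.852), and here too the direction and that threshold held without the library. For Trp53inp2 it was AL 3, at 13.3 CPM against 32.1 to 35.5 CPM (ratio 0.845). For Retreg1 it was AL 1, at 11.2 CPM against 5.89 to 6.41 CPM (ratio 0.902).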

How the results depend on the processing

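Map1lc3a, Atg9a, Atg5, Uvrag and Gabarapl2 kept their direction in every alternative tried, and the median over the members stayed between -0.07 and 0.07. Of 360 values of single genes under the alternatives, 326 kept their direction and their side of the threshold. The count of all genes called, 222 as reported, was 704 with DESeq2, 397 with limma voom and quality weights, 436 with no filter on low counts, 3 with the parotid score and 61 to 700 when 1 library was left out, 61 without AL replicate 2 and 700 without CR replicate 4. It was 78 without AL replicate 1, 87 without AL replicate 3, 121 without CR replicate 1, 65 without CR replicate 2 and 64 without CR replicate 3. The count of members called, 0 as reported, was 2 of 40 with DESeq2 (Map1lc3a and Atg5, against 6.28% of all genes) and 1 of 40 with limma voom (Map1lc3a, against 3.54%). It was 0 to 3 when 1 library was left out, the 3 (Map1lc3a, Atg4d and Gabarapl1) being called without CR replicate 4. Members at an unadjusted p under 0.05 numbered 7 as reported, 3 with the parotid score and 4 to 8 with 1 library left out, with 4 without AL replicate 2, AL replicate 4, CR replicate 1 or CR replicate 2, where 13.05 to 19.95% of all genes passed in the fits with 1 library left out. Other pathway genes called, 2 of 58 as reported, were 5 of 58 with DESeq2, 4 of 58 with limma voom and 4 of 62 with no filter. The shares of all genes called in these 3 alternatives were 6.28%, 3.54% and 2.61%. With the parotid score 0 of 58 were called, where 0.0268% of all genes were. With 1 library left out 2 to 7 were called, the 7 being without CR replicate 4, where 700 genes were called in all. Directions that turned were Atg4d (-0.36), Gabarapl1 (-0.0436), Bnip3 (-0.21), Map1lc3b (-0.43), Retreg1 (-0.17) and Trp53inp2 (0.0648) with the parotid score, Gabarap without AL replicate 1, AL replicate 3 or CR replicate 4 (range with 1 library left out -0.0853 to 0.245), Wdr45 without AL replicate 2 or CR replicate 2 (range -0.0279 to 0.467), and the rarely counted Atg4a without AL replicate 4 (exact permutation p = 0.686) or CR replicate 3 (exact permutation p = 0.857, over a range of 0.314 to 0.971). None of the directions that turned with the parotid score had an unadjusted p under 0.05 in that fit. The cause was not tested.

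Libraries of the 2 diets with the same replicate number correlated by 0.149, 0.079, 0.244 and 0.462 in their deviations from the group means, and 1 of the 4 was under 0.1, so the numbers were not read as pairs. As a hint from the data, 5 of 8 libraries correlated best with their own number. A replicate block gave 700 genes called (6.24%). It called 2 of 40 members (Map1lc3a, adjusted p = 0.0178 by edgeR, and Atg5, 0.0472) and 4 of 58 other pathway genes (Pink1, Ddit4, Retreg1 at 0.00956 and Stx17 at 0.00486). With 4 libraries a group the median standard error of a member's log2 fold change was 0.23, and values near the floor, as for Atg4a and Atg9b, cannot resolve a difference at this depth.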
